A study of Mus musculus with 2 samples.

Results

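Granule neuroblasts and Cajal Retzius neurons are small neuronal clusters among single cells of the mouse ventral hippocampus (vHPC). Their members were the cells that carry either cluster name in the deposited cell table, and the 2 types were kept apart throughout. They numbered 79 granule neuroblasts and 52 Cajal Retzius neurons, 131 of 8477 cells. The names are the authors' cluster names, and the table holds totals per cell and not counts per gene, so the names could not be checked here against Dcx, Sox11 or Reln.

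Granule neuroblasts are immature neurons that arise from dividing progenitors in the dentate gyrus, where neurogenesis goes on after birth, and that mature into dentate granule cells. They are known for Dcx, a microtubule-associated protein of migrating young neurons, and for Sox11, a transcription factor of newly formed neurons. Cajal Retzius neurons are born early in development, settle near the surface of the cortex and around the hippocampal fissure, and secrete reelin, the glycoprotein encoded by Reln that guides the layering of neurons. The mature granule cells of the dentate gyrus are represented here by the clusters Neu_DG_1 and Neu_DG_2.

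Both groups were adult male mice of 11 to 12 weeks on a mixed background of C57BL/6J and C57BL/6N. WT mice carried ADCY2-V151 (wt), and L151 mice were homozygous for ADCY2-L151, a knock-in that replaces 1 valine of the adenylyl cyclase Adcy2 with leucine. The L151 line was made with CRISPR/Cas9 from 1 heterozygous founder, and its repair template also carried silent changes that added an AluI site and removed a PAM. The allele sits in the germline and is not limited to a cell type, and the labels name no treatment. The vHPC was dissected after perfusion with PBS, dissociated with papain and DNase I, and captured as single cells with 10x Genomics 3' chemistry. The authors kept 1 library per genotype, so genotype, mouse, dissection and library cannot be told apart, and no test between genotypes was possible. Values are therefore given as medians and ranges over cells, with each library kept apart. Clusters were built from the genes of the same cells, so differences between clusters are descriptions as well.

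The WT library held 4055 cells and 22049587 unique molecular identifiers (UMIs), and the L151 library held 4422 cells and 22276085 UMIs. A UMI marks 1 captured RNA molecule, so UMIs per cell measure both the RNA of a cell and how well it was captured. The authors removed doublets before deposit. The libraries shared 3 cell barcodes, and 0 of them belonged to a granule neuroblast or Cajal Retzius neuron.

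Granule neuroblasts gave more UMIs than the Neu_DG_1 granule cells and fewer than the Neu_DG_2 granule cells in both libraries. WT neuroblasts ranged from 1799 to 13413 UMIs with a median of 6539 (40 cells). L151 neuroblasts ranged from 1612 to 14232 with a median of 6858 (39 cells). The ranges of the 2 libraries overlapped almost fully. Neu_DG_1 cells had medians of 3363 UMIs in WT (486 cells) and 3594.5 in L151 (404 cells), so the neuroblast median was 1.94-fold and 1.91-fold higher. Neu_DG_2 cells had medians of 10573.5 UMIs in WT (104 cells) and 11239 in L151 (115 cells), the highest of the 33 clusters in each library. The neuroblast median was 0.618 of the Neu_DG_2 median in WT and 0.610 in L151. Neuroblasts thus lay between both granule cell clusters, and both ratios differed little between libraries.

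Cajal Retzius neurons lay in the same range of UMIs but were more uniform. WT Cajal Retzius neurons ranged from 3091 to 10173 UMIs with a median of 7883 (32 cells), and L151 cells ranged from 4520 to 9658 with a median of 6397.5 (20 cells). The coefficient of variation of UMIs over cells was 0.230 in WT and 0.209 in L151 Cajal Retzius neurons, and it was 0.404 and 0.369 in neuroblasts. Neuroblasts therefore covered both a shallower and a deeper range, and every Cajal Retzius neuron of either library fell inside the range of the neuroblasts of that library. Over 10000 UMIs there were 3 of 40 WT neuroblasts (7.50%, exact Clopper-Pearson 95% interval 1.57% to 20.4%) and 10 of 39 L151 neuroblasts (25.6%, 13.04% to 42.1%), so most of these deep neuroblasts came from the L151 library. Of Cajal Retzius neurons, 1 of 32 in WT and 0 of 20 in L151 passed this depth. The shares over all cells were 13.1% in WT and 11.5% in L151, and those of Neu_DG_2 were 53.8% and 60.0%. The order of the medians of both types turned between libraries: the neuroblast median was 0.830 of the Cajal Retzius median in WT and 1.07 times as high in L151. Against Neu_DG_1, Cajal Retzius neurons had 2.34-fold more UMIs in WT and 1.78-fold more in L151.

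**Figure D1:**
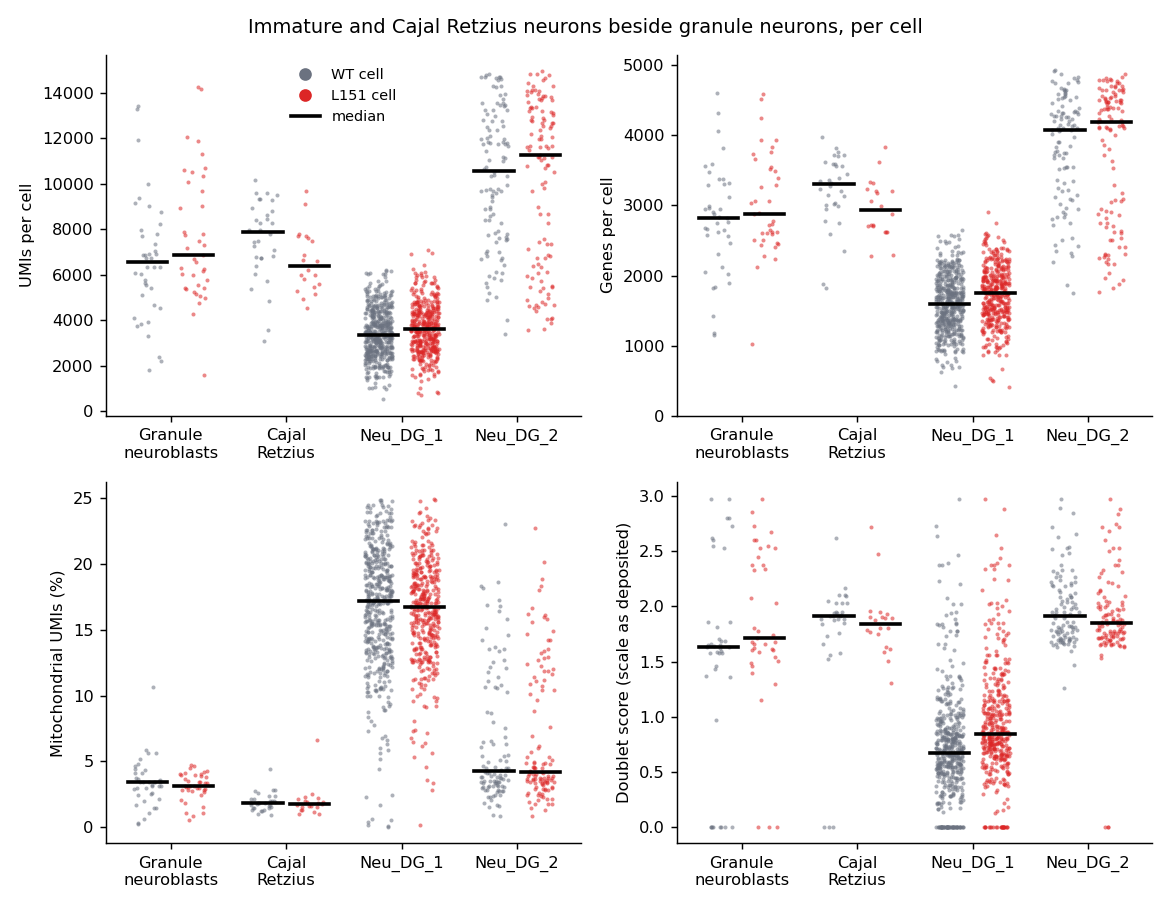
Each point is 1 cell of the WT or L151 library, for granule neuroblasts, Cajal Retzius neurons, Neu_DG_1 and Neu_DG_2. The panels give UMIs per cell, genes per cell, the percent of mitochondrial UMIs and the doublet score on linear axes, and lines mark medians. Neuroblasts spread from 1612 to 14232 UMIs and Cajal Retzius neurons from 3091 to 10173, and Cajal Retzius neurons have the lowest median mitochondrial percent of these clusters in both libraries.

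Gene numbers, the genes for which any UMI was counted in a cell, followed the UMIs. Neuroblasts had a median of 2824.5 genes in WT, with a range of 1153 to 4607, and of 2882 genes in L151, with a range of 1018 to 4592. Cajal Retzius neurons had 3299.5 genes in WT, with a range of 1825 to 3983, and 2937 in L151, with a range of 2277 to 3833. Cajal Retzius neurons ranked 3 of 33 clusters by median genes in WT and 7 in L151, although they ranked only 10 and 14 by UMIs. Neuroblasts ranked 12 and 8 by genes. The neuroblast median was 1.77-fold that of Neu_DG_1 in WT and 1.65-fold in L151, and 0.692 and 0.688 of that of Neu_DG_2. No member cell had fewer than 1000 genes. Taking 3 cells as the limit of a count of 0 allows a share of up to 3.80% of the 79 neuroblasts and 5.77% of the 52 Cajal Retzius neurons, and the exact 95% upper limits are 4.56% and 6.85%. Of all cells, 22.2% were below 1000 genes.

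Genes per UMI, a measure of how varied the captured transcripts of a cell are, fall as a cell is read more deeply. Within neuroblasts the rank correlation (Spearman's rho) of UMIs with genes per UMI was -0.91 over the 40 WT cells and -0.96 over the 39 L151 cells, and in Cajal Retzius neurons it was -0.96 over 32 cells and -0.93 over 20 cells. These are descriptions over cells that share a library, and both measures hold the UMI number. The medians were 0.440 in WT and 0.423 in L151 neuroblasts, and 0.429 in WT and 0.459 in L151 Cajal Retzius neurons, so the order of the types turned between libraries here too. Neu_DG_1 lay above both types at 0.473 and 0.483, and Neu_DG_2 below both at 0.381 and 0.372. That order is the reverse of the order by UMIs.

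Genes were therefore compared between cells of like depth, in bins of 0.5 on the log2 scale of UMIs that held at least 3 cells of both types. Both types had more genes than Neu_DG_1 cells at matched UMIs, with mitochondrial UMIs counted in. Between 4096 and 5793 UMIs the median was 2560 genes in 7 WT neuroblasts, 2590 in 3 Cajal Retzius neurons and 2055 in 127 Neu_DG_1 cells. In L151 the same bin gave 2444 genes in 11 neuroblasts, 2617.5 in 6 Cajal Retzius neurons and 2084 in 126 Neu_DG_1 cells. Of these clusters, Neu_DG_1 was thus the poorest in genes at this total depth in either library. Its cells in this bin had medians of 18.4% mitochondrial UMIs in WT and 16.7% in L151. Neuroblasts of the bin had 3.12% and 3.05%, and Cajal Retzius neurons 1.46% and 1.78%. At like total UMIs Neu_DG_1 cells thus held fewer non-mitochondrial UMIs, and cells were not matched on these. Over all bins the log2 ratio to Neu_DG_1 was 0.21 ± 0.03 for neuroblasts and 0.30 ± 0.01 for Cajal Retzius neurons (SD over 2 libraries).

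The ratios to Neu_DG_1 became smaller once UMIs were also adjusted inside the bins. Neuroblasts then had 8.42% more genes than Neu_DG_1 in WT and 5.99% more in L151, and Cajal Retzius neurons had 9.60% and 12.2% more. The direction held in both libraries, at a smaller size than the bins gave. This adjustment also used total UMIs, and whether the difference remains at equal non-mitochondrial UMIs was not tested. Against Neu_DG_2 the same adjustment left neuroblasts with 0.672% fewer genes in WT and 3.16% fewer in L151. Cajal Retzius neurons had 1.01-fold as many as Neu_DG_2 in WT and 1.05-fold as many in L151. Both types differed from each other in the same direction, with 2.36% fewer genes in WT and 5.48% fewer in L151 neuroblasts than in Cajal Retzius neurons of like depth. So at equal depth Cajal Retzius neurons gave slightly more genes than neuroblasts in each library, although the unadjusted genes per UMI had opposite orders.

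**Figure D2:**
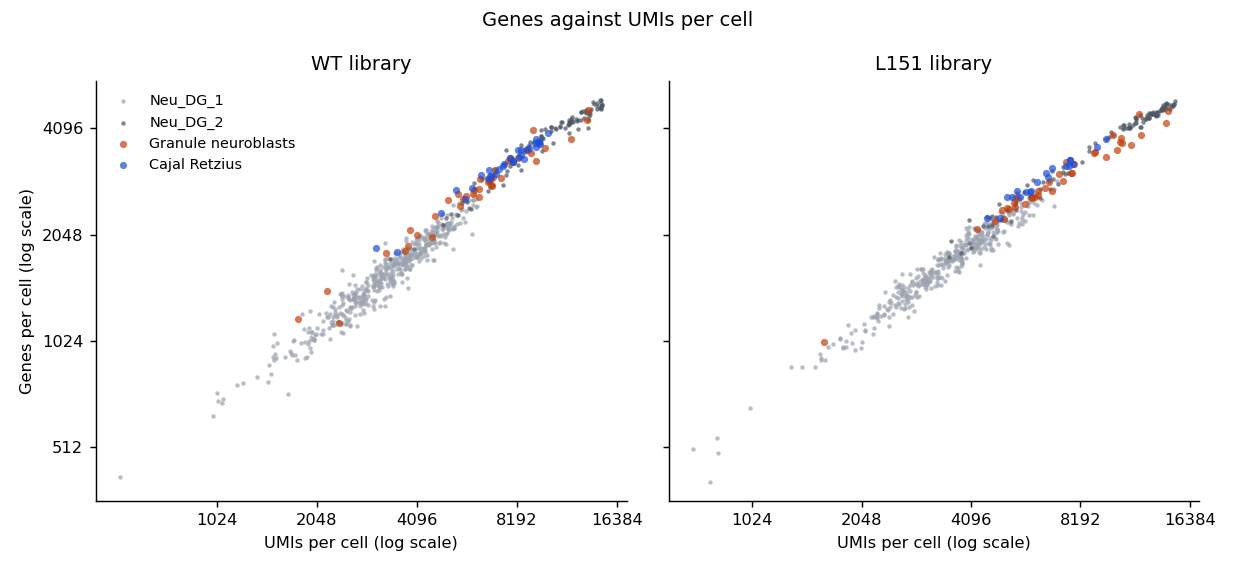
Genes per cell are plotted against UMIs per cell on logarithmic axes for the WT and L151 libraries, with 1 point per cell and colours for granule neuroblasts, Cajal Retzius neurons, Neu_DG_1 and Neu_DG_2. Neu_DG_1 cells lie lowest at like UMIs, and both types follow the line of Neu_DG_2, which reaches the highest UMIs.

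Mitochondrial transcripts were a smaller part of the RNA in both types than in Neu_DG_1 granule cells, and smaller in Cajal Retzius neurons than in neuroblasts. The mitochondrial percent gives the part of all UMIs in a cell that came from mitochondrial genes. In neuroblasts its median was 3.40% in WT, with a range of 0.206% to 10.7%, and 3.11% in L151, with a range of 0.558% to 4.72%. In Cajal Retzius neurons it was 1.83% in WT, with a range of 0.930% to 4.42%, and 1.72% in L151, with a range of 0.975% to 6.59%. The neuroblast median was thus 1.86-fold higher in WT and 1.80-fold higher in L151, and the ranges overlapped. Among all pairs of 1 neuroblast and 1 Cajal Retzius neuron of the same library, the neuroblast was higher in 80.5% of WT pairs and 82.6% of L151 pairs. In bins of like UMIs the ratio was 1.77-fold in WT and 1.80-fold in L151, so it was nearly as large at equal depth.

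Of the 33 clusters, Cajal Retzius neurons ranked 31 by median mitochondrial percent in each library, and neuroblasts ranked 25 in WT and 27 in L151. Among the 13 neuronal clusters they ranked 12 and 11 in both libraries, and the cluster below them, Neu_CA1_2, was the shallowest of all with 649 UMIs in WT and 532 in L151. Neu_DG_1 had medians of 17.2% and 16.7%, and ranked 3 and 2 of 33. It was 5.07-fold higher than neuroblasts in WT and 5.38-fold higher in L151, and 9.43-fold and 9.70-fold higher than Cajal Retzius neurons. No neuroblast and no Cajal Retzius neuron reached the Neu_DG_1 median of its library. Over 10% mitochondrial UMIs there were 1 of 79 neuroblasts, 0 of 52 Cajal Retzius neurons (exact 95% upper limit 6.85%, or 5.77% by the limit of 3 cells), 834 of 890 Neu_DG_1 cells and 63 of 219 Neu_DG_2 cells. The share over all cells was 29.8% (2523 of 8477), near that of Neu_DG_2, at 28.8%, and far below that of Neu_DG_1, at 93.7%.

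The lower percentages came with fewer mitochondrial molecules and with more of all other molecules. Neuroblasts held a median of 201 mitochondrial UMIs in WT and 240 in L151, Cajal Retzius neurons 137 and 118, and Neu_DG_1 cells 562.5 and 573. Other UMIs had medians of 6397 and 6580 in neuroblasts, 7716 and 6263.5 in Cajal Retzius neurons, and 2780 and 2974.5 in Neu_DG_1 cells. Both parts of the percentage thus differed from Neu_DG_1, the mitochondrial UMIs downwards and the other UMIs upwards, in each library.

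Against Neu_DG_2 the difference in mitochondrial percent depended on depth in neuroblasts. Over all cells the neuroblast median was 0.802 of the Neu_DG_2 median in WT and 0.743 in L151. Between 4096 and 8192 UMIs, the 2 bins gave neuroblasts 3.12% and 2.85% in WT and 3.05% and 3.23% in L151. Neu_DG_2 cells of the same bins had medians from 12.2% to 15.5% over both libraries. Between 8192 and 11585 UMIs neuroblasts had 3.89% in WT (6 cells) and 3.98% in L151 (9 cells), close to the 4.26% (30 cells) and 3.57% (21 cells) of Neu_DG_2. From 11585 to 16384 UMIs neuroblasts had 4.14% in WT (3 cells) and 3.24% in L151 (4 cells), and Neu_DG_2 had 3.44% (45 cells) and 3.59% (55 cells). The Neu_DG_2 value was thus several-fold lower in the deeper bins than in the shallower ones. The neuroblast value stayed between 2.85% and 4.14% in these bins. It was 4.13% in 5 WT neuroblasts of the shallower bin from 2896 to 4096 UMIs, so in WT it was not highest only in deep cells.

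Neu_DG_2 itself was wide by this measure. Its cells with at most 10% mitochondrial UMIs had a median of 11756.5 UMIs in WT (76 cells) and 12653.5 in L151 (80 cells), with 3.54% and 3.63% mitochondrial UMIs. Its cells over 10% had 6881 UMIs in WT (28 cells) and 5464 in L151 (35 cells), with 13.5% and 13.3%. Neuroblasts were thus near the first of these sets in mitochondrial percent and near the second in UMIs. Cajal Retzius neurons were below Neu_DG_2 at every depth that could be compared. In the WT bin from 8192 to 11585 UMIs they had 1.95% (14 cells) against 4.26%.

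**Figure D3:**
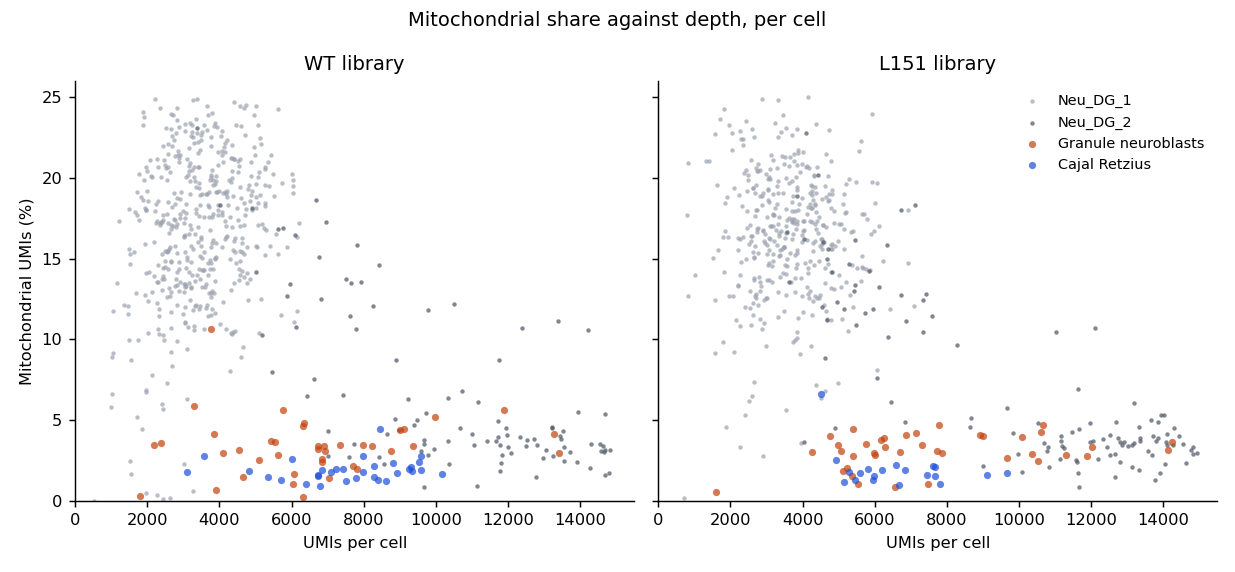
The percent of mitochondrial UMIs is plotted against UMIs per cell on linear axes for the WT and L151 libraries, with 1 point per cell and colours for the 4 clusters. Neu_DG_1 cells gather around 17.2% in WT and 16.7% in L151, Neu_DG_2 cells over 10% are mostly shallow, and neuroblasts and Cajal Retzius neurons lie low at all depths.

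The doublet score rates how much a droplet resembles a mixture of 2 cells, on a scale that no source used here explains. Neuroblasts had a median score of 1.63 in WT and 1.71 in L151, and Cajal Retzius neurons 1.91 and 1.84. Both were above Neu_DG_1, at 0.673 and 0.847, and Cajal Retzius neurons were level with Neu_DG_2, at 1.91 and 1.85. The scores of neuroblasts fell into separate bands. A score of 0 was held by 11 of 79 neuroblasts (8 in WT, 3 in L151), 45 lay between 0.969 and 2.07, and 23 lay between 2.33 and 2.98, with none in the gap. The band edge of 2.2 was chosen after these values were seen. Scores of 0 were more common over all cells, at 26.5%, than in neuroblasts, at 13.9%. They were less common in Cajal Retzius neurons, at 5.77%, in Neu_DG_1, at 8.76%, and in Neu_DG_2, at 1.37%.

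The high band held 29.1% of neuroblasts (exact Clopper-Pearson 95% interval 19.4% to 40.4%), with 9 of 40 cells in WT and 14 of 39 in L151. It held 3 of 52 Cajal Retzius neurons (5.77%, 1.21% to 15.9%), 21 of 890 Neu_DG_1 cells (2.36%, 1.47% to 3.58%), 43 of 219 Neu_DG_2 cells (19.6%, 14.6% to 25.5%) and 7.82% of all cells. Intervals of shares cover counting error only. The share of neuroblasts in the high band was thus above that of Cajal Retzius neurons and of all cells. Against Neu_DG_2 it was level in WT at this edge, at 22.5% and 22.1%, and higher in L151, at 35.9% and 17.4%. The edge lies in the gap of the neuroblast scores, whereas Neu_DG_2 scores reached 2.19 below it and began at 2.21 above it. Another edge took the highest scores of each library, held by 10.0% of WT cells and 9.97% of L151 cells. By that edge the neuroblast share was below that of Neu_DG_2 in WT, at 22.5% and 28.8%. In L151 it stayed higher, at 38.5% and 22.6%. By median score neuroblasts ranked 12 of 33 clusters in WT and 10 in L151. In the high band neuroblasts had a median of 9659 UMIs and 3554 genes. Neuroblasts of the middle band had 6267 UMIs and 2677 genes, and those at 0 had 3764 UMIs and 1836 genes. The mitochondrial percent of the high band against the middle band had opposite orders in the libraries, at 4.14% against 3.12% in WT and 3.01% against 3.44% in L151.

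The score rose with UMIs in neuroblasts, with Spearman's rho of 0.70 over the 40 WT cells and 0.46 over the 39 L151 cells. The rise was not particular to neuroblasts, since rho in Neu_DG_1 was 0.54 over 486 WT cells and 0.47 over 404 L151 cells. Cajal Retzius neurons had 0.57 over 32 WT cells and 0.06 over 20 L151 cells. In Neu_DG_2 the relation ran the other way, at -0.44 over 104 cells and -0.30 over 115 cells. In the bin from 8192 to 11585 UMIs the median score was 2.59 in WT and 2.45 in L151 neuroblasts, and 1.92 and 1.80 in Neu_DG_2 cells. From 5793 to 8192 UMIs the order was the reverse, at 1.63 and 1.66 against 2.14 and 2.03. Whether deep neuroblasts with high scores are droplets with more than 1 cell was not tested, since no counts per gene were at hand.

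**Figure D4:**
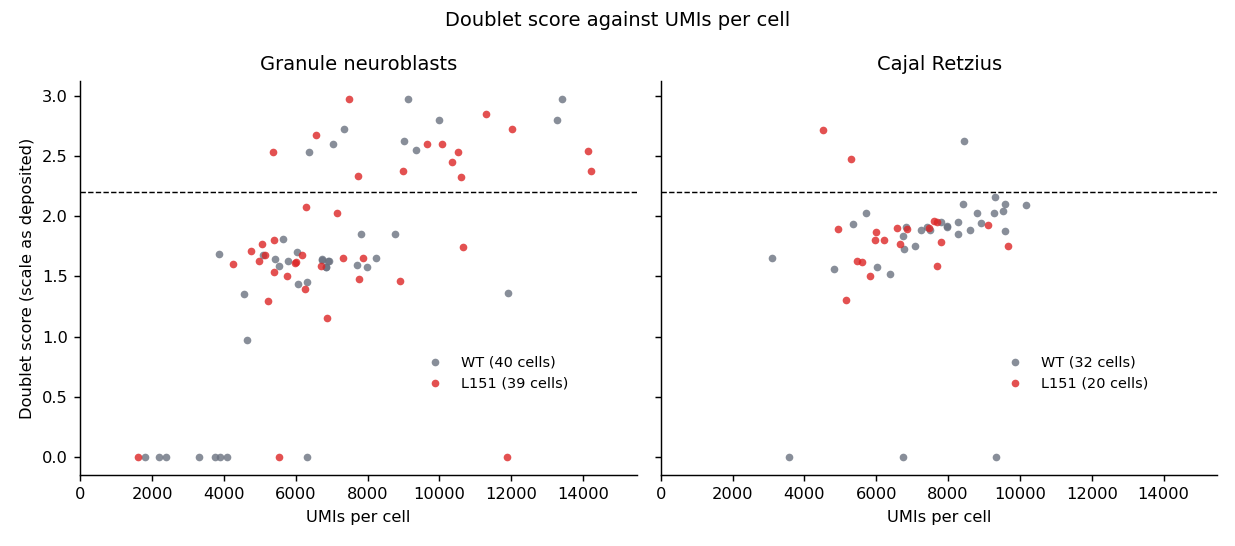
The doublet score is plotted against UMIs per cell on linear axes, in a panel for granule neuroblasts and a panel for Cajal Retzius neurons, with 1 point per cell coloured by library and a dashed line at 2.2. Neuroblasts between 2.33 and 2.98 include most of those over 10000 UMIs, and 3 of 52 Cajal Retzius neurons lie above the line.

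The numbers of the 2 types were compared between genotypes against several totals. Of all cells, neuroblasts made up 0.986% in WT (40 of 4055) and 0.882% in L151 (39 of 4422), a ratio of 0.894 (0.560 to 1.43). Neuroblasts made up 2.90% of neurons in WT (40 of 1380, 95% interval 2.08% to 3.93%) and 2.25% in L151 (39 of 1737, 1.60% to 3.06%), a ratio of 0.775 (0.485 to 1.24). Per 100 cells of Neu_DG_1 and Neu_DG_2 there were 6.78 neuroblasts in WT (4.79 to 9.34) and 7.51 in L151 (5.28 to 10.4), a ratio of 1.11 (0.694 to 1.77). The direction of the neuroblast ratio thus turned with the total, and every interval held 1.

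Cajal Retzius neurons were fewer in L151 against each total. Of all cells, they made up 0.789% in WT (32 of 4055) and 0.452% in L151 (20 of 4422), a ratio of 0.573 (0.311 to 1.03). They made up 2.32% of neurons in WT (32 of 1380, 1.59% to 3.26%) and 1.15% in L151 (20 of 1737, 0.705% to 1.77%), a ratio of 0.497 (0.269 to 0.895). Per 100 cells of Neu_DG_1 and Neu_DG_2 they were 5.42 in WT and 3.85 in L151, a ratio of 0.711 (0.385 to 1.28). Only the interval against neurons excluded 1, and it covers counting error and not the spread between mice. The paper reports more CA1 and CA3 and fewer dentate glutamatergic neurons in L151, so these totals differ between the libraries as well. Its own tests of cell numbers list neither Cajal Retzius neurons nor neuroblasts as deviating. There were 1.25 neuroblasts per Cajal Retzius neuron in WT (0.766 to 2.06) and 1.95 in L151 (1.11 to 3.53), and these intervals overlapped. Of all UMIs, neuroblasts supplied 1.20% in WT and 1.34% in L151, and Cajal Retzius neurons 1.10% and 0.593%.

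Within neuroblasts the medians of UMIs and genes differed little between the genotypes, although more L151 cells lay over 10000 UMIs. The L151/WT ratio of medians was 1.05 for UMIs, 1.02 for genes, 0.961 for genes per UMI and 0.915 for mitochondrial percent. Over all 33 clusters the UMI ratio ranged from 0.639 to 1.11 with a median of 0.917, and 24 clusters were lower in L151. Neuroblasts, at rank 4 from the highest, were among the 9 clusters with more UMIs in L151. The direction turned when only cells with a score above 0 and at most 2.2 were kept, where the log2 ratio of UMIs was -0.14 in place of 0.07 and that of the mitochondrial percent 0.14 in place of -0.13. At matched UMIs L151 neuroblasts had 2.79% fewer genes.

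Cajal Retzius neurons had fewer UMIs and genes in L151. The ratio was 0.812 for UMIs, at rank 28 of 33, and 0.890 for genes, against a median ratio of 0.954 over the clusters. The ranges between the quartiles overlapped, with quartiles of 6740.5 and 8834.75 UMIs in WT and 5567 and 7622.75 in L151. Genes per UMI were 1.07-fold higher in L151, and at matched UMIs the genes differed by 0.620% between the libraries. The difference in genes was therefore not seen at equal depth. The mitochondrial percent had a ratio of 0.944, against a range of 0.416 to 2.84 over the clusters.

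**Figure D5:**
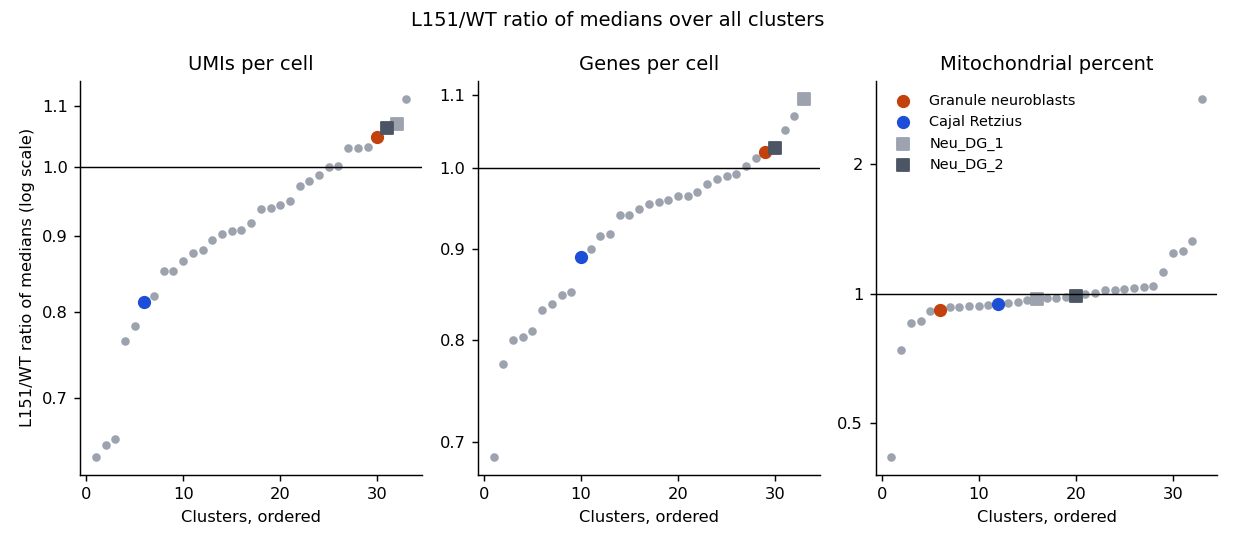
The L151/WT ratio of cluster medians is plotted on log axes for all 33 clusters, ordered from the lowest to the highest ratio, for UMIs, genes and mitochondrial percent, with the 2 types, Neu_DG_1 and Neu_DG_2 in larger symbols. For UMIs neuroblasts lie at 1.05 and Cajal Retzius neurons at 0.812, and both lie inside the range of 0.639 to 1.11 spanned by the clusters.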

How the data were processed

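Single cells of the vHPC were analysed from a cell table with 1 library per genotype. The submitters' processing notes name Cell Ranger 3.0.2 and mm10 for the counting, and the deposited counts of UMIs and genes are raw whole numbers for each cell. The mitochondrial percent was computed by the authors from these counts. The authors also deposited a doublet score for every cell, whose scale no source used here explains. The authors left out 1 sample per genotype, removed doublets with scran together with cells of very few or many genes or high mitochondrial content, and clustered and named the cells with Seurat 3.1.3. Cluster names were used as deposited. The mitochondrial limit also bounds the Neu_DG_1 values, which reach up to it. The upper limit of genes bounds the Neu_DG_2 values, whose highest cell, at 4927 genes, has the most genes in the table. Ratios to Neu_DG_2 are given under this limit.

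From the table, medians, quartiles, shares and ratios were computed per cluster and library in Python 3.11.15 (numpy 2.4.6, pandas 2.3.3, scipy 1.17.1), and matplotlib 3.10.9 drew the figures. Mitochondrial UMIs were computed as the product of percent and count. Ratios are of medians within a library, averaged on the log2 scale over both libraries. Shares have exact Clopper-Pearson 95% intervals. Thinning of cells needs counts per gene, so genes were compared in bins of log2 UMIs with a width of 0.5 and at least 3 cells of each type. In simulated data plain bins left a depth difference inside bins, and an adjustment for UMIs inside bins was added. The calculations were tested on simulated data. No test was made, since each genotype has 1 library and cells are not replicates. Every one of the 8477 cells entered, and the number of value columns that matched no sample was 0.

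No gene is named with a value, and Dcx, Sox11 and Reln serve as background only. The clusters, measures and marker names were chosen with earlier results of these data known. Alternatives were a minimum of 1000 genes, a maximum of 10% mitochondrial UMIs, means in place of medians, other bins and totals, the log10 ratio of genes and UMIs, and each library alone. The score limits of 0 and 2.2, the adjustment inside bins and the matched comparisons of mitochondrial percent and score were added after the data were seen.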

Additional observations from a re-analysis of the deposited data

Results flagged for a closer look

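The L151 against WT comparison went opposite ways in granule neuroblasts and Cajal Retzius neurons for 4 measures, and the difference between the types was not tested. For UMIs per cell the log2 ratio of medians was 0.07 in neuroblasts and -0.30 in Cajal Retzius neurons, a difference of 0.37. For genes per cell it was 0.03 and -0.17, a difference of 0.20. For genes per UMI it was -0.06 and 0.10, a difference of -0.15. For the doublet score the difference of medians was 0.08 in neuroblasts and -0.07 in Cajal Retzius neurons, and these were 0.15 apart. With means over cells in place of medians the score was higher in L151 in both types, by 0.31 in neuroblasts and 0.11 in Cajal Retzius neurons, so the opposite directions were lost. With only cells of a score above 0 and at most 2.2, limits chosen after the data were seen, the neuroblast values became -0.14 for UMIs, -0.11 for genes and 0.0064 for genes per UMI.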

How the results depend on the processing

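Of 223 alternative values for 42 results, 176 stayed within the limits of the main value and 47 moved beyond them. The limits were intervals of the medians over cells, the SD over both libraries for genes at matched UMIs, and exact intervals for shares. They do not cover the spread between mice. The log10 ratio was judged by direction only. The sign turned in 11 alternatives of 10 results. No paired analysis was possible because each genotype has 1 library and the labels give no replicate numbers. Unless means are named, values are log2 ratios of medians, or differences of medians for the doublet score. Means were geometric for UMIs, genes and genes per UMI, and arithmetic for mitochondrial percent and the score. The causes of the moves were not tested. With at most 10% mitochondrial UMIs, which leaves few Neu_DG_1 cells, the comparison of neuroblasts with Neu_DG_1 was 1.39 for UMIs, 1.01 for genes, -0.36 for genes per UMI and 0.31 for genes at matched UMIs, and that of Cajal Retzius neurons with Neu_DG_1 was 1.45, 1.13, -0.32 and 0.40, with a score difference of 1.17. Under the same limit neuroblasts against Neu_DG_2 had 0.27 for genes per UMI and -0.11 for genes at matched UMIs, and Cajal Retzius neurons against Neu_DG_2 had 0.32 for genes per UMI and 0.079 for the score, which turned from -0.0068. Means over cells gave -0.39 for genes and -1.07 for mitochondrial percent of neuroblasts against Neu_DG_2. For Cajal Retzius neurons, means gave -0.27 for genes, -1.82 for mitochondrial percent and -0.14 for the score against Neu_DG_2, -3.11 for mitochondrial percent and 0.97 for the score against Neu_DG_1, and 0.11 for the score of L151 against WT, which turned from -0.07. At matched UMIs the mitochondrial percent against Neu_DG_2 was -1.42 for neuroblasts and -2.45 for Cajal Retzius neurons. The matched score was 0.47 for neuroblasts and 0.83 for Cajal Retzius neurons against Neu_DG_1, and -0.14 for Cajal Retzius neurons against Neu_DG_2. Genes at matched UMIs against Neu_DG_1 were 0.14 and 0.21 for neuroblasts and Cajal Retzius neurons in bins of 0.25, and 0.10 and 0.15 with adjustment inside bins. With scores above 0 and at most 2.2, genes of neuroblasts were 0.67 against Neu_DG_1 and -0.65 against Neu_DG_2, and all 4 L151 against WT values of neuroblasts turned, to -0.14 for UMIs, -0.11 for genes, 0.0064 for genes per UMI and 0.14 for mitochondrial percent. Means also turned the mitochondrial percent of Cajal Retzius neurons in L151 against WT, from -0.08 to 0.02.

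With each library alone, Cajal Retzius neurons ranged from 0.83 to 1.23 for UMIs, 0.75 to 1.05 for genes, -0.14 to -0.074 for genes per UMI and 0.99 to 1.24 for the score against Neu_DG_1, and from -0.81 to -0.42 for UMIs, -0.51 to -0.31 for genes and 0.17 to 0.30 for genes per UMI against Neu_DG_2. Neuroblasts ranged from -0.19 to -0.10 for genes per UMI against Neu_DG_1. Neuroblasts against Cajal Retzius neurons ranged from -0.12 to 0.036 for genes per UMI, from -0.27 to 0.10 for UMIs and from -0.28 to -0.13 for the score, so the order of the first 2 measures depended on the library. With 1 library per genotype and 20 to 40 cells per type in each, the spread between mice is unknown and no detection limit was computed.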

Other observations

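In both libraries the Cajal Retzius neuron with the highest mitochondrial percent was also the one with the highest doublet score. In WT this cell had 8442 UMIs, 3446 genes, 4.42% mitochondrial UMIs and a score of 2.62. In L151 it had 4520 UMIs, 2277 genes, 6.59% mitochondrial UMIs and a score of 2.72, and it was also the shallowest L151 cell of the type. The only neuroblast over 10% mitochondrial UMIs was a WT cell with 3764 UMIs, 1836 genes, 10.7% and a score of 0. The highest doublet score in the table, 2.98, was shared by 50 cells, 3 of them neuroblasts.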
